A study of Mus musculus with 12 samples.

Results

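The genes of the cytosolic ribosomal proteins were followed across 12 mouse pancreas tumours. Members were the genes whose symbol is Rpl or Rps with a number, or Rplp0, Rplp1, Rplp2 or Rpsa, and which had a probe set mapped to exactly 1 symbol. Kinases of the Rps6k family and hyphenated symbols were left out, and the probe set of highest mean stood for each gene. This gave 45 genes from 51 probe sets, among 30142 genes measured. They were 17 proteins of the large subunit, 15 of the small subunit, the stalk protein Rplp0, 6 paralogs (Rpl3l, Rpl7l1, Rpl10l, Rpl22l1, Rpl39l and Rps27l), 4 further copies (Rpl32l, Rpl6l, Rps3a2 and Rps3a3, of which RefSeq lists 3 as pseudogenes), and 2 genes whose symbols fit but which are not ribosomal proteins themselves (Rps19bp1 and Rps23rg1). The set is not a full ribosome. Another 53 probe sets carried a ribosomal protein symbol together with others, so 43 symbols, Rplp1, Rplp2, Rpl5, Rpl23 and Rpl35a among them, have no member value here.

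The tumours came from PKT mice, a genetic model in which pancreas tumours arise, and they fell into 4 groups of 3. In the FAP line a viral thymidine kinase (TK) was tied to fibroblast activation protein, and in the aSMA line to alpha smooth muscle actin; ganciclovir kills dividing cells that carry TK. The groups were PKT FAP-TK controls without depletion, PKT FAP depleted tumours, PKT aSMA-TK controls without depletion, and PKT tumours labelled aSMA depleted. All groups therefore shared the PKT background. The labels give ganciclovir at 50 ug per kg for all 12 samples and do not say whether the controls received it, and they give no age, strain or treatment time. Each array is a separate mouse, and replicate numbers only name arrays.

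A cytosolic ribosome joins a small subunit, which reads the mRNA, to a large subunit, which forms the peptide bond. Ribosomal proteins are made in matched amounts, and free Rpl5, Rpl11 and related proteins bind Mdm2 and so stabilise p53. The mRNAs of these proteins typically start with a C followed by a run of pyrimidines, the 5′ terminal oligopyrimidine (TOP) motif, through which mTORC1 controls their translation; Myc raises their transcription. Arrays measure mRNA level, so translation through the TOP motif was not observed.

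Start sites were read from RefSeq (GRCm38.p6), and 30 bases are shown for 6 members that carry the pyrimidine run, 10 before the annotated start and 20 from it. They are shown as examples of the run for which these mRNAs are known, and because Rps18 and Rpl7a return below among the genes that differed between the lines. Capitals mark the longest run of C and T that opens with C within 5 bases of the annotated start.
Rpl35, large subunit, chr2:39005112-39005141, minus strand: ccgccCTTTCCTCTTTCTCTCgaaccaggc
Rpl38, large subunit, chr11:114668570-114668599, plus strand: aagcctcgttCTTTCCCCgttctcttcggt
Rpl7a, large subunit, chr2:26910797-26910826, plus strand: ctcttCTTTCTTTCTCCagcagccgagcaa
Rps10, small subunit, chr17:27635225-27635254, minus strand: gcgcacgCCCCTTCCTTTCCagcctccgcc
Rps18, small subunit, chr17:33955646-33955675, minus strand: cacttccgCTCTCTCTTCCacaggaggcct
Rps24, small subunit, chr14:24490668-24490697, plus strand: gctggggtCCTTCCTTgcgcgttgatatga

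The motif searched was a C followed by at least 4 bases that are C or T. It was sought only on the strand with the sequence of the mRNA, opening within 5 bases of any annotated start of the gene. Of the 45 members, 37 had an entry in the table and 16 of these (43.2%) held the run. Over all 27025 genes listed there, 21.2% held it, and among 69 mitochondrial ribosomal protein genes 24.6%. Rplp0 was among the 21 members without it in this window, and Rps29 had no entry. Of the 37, 7 had more than 1 annotated start, and a start annotated a few bases away from the true one moves the run out of the window.

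The positions of the 45 genes lie on 18 chromosomes, with at most 6 on any of them. Probe set identifiers name a chromosome, and it was that of the RefSeq gene for 30004 of the 30099 gene probe sets that could be compared (99.7%). Among the members 39 of 45 matched. The other 6, Rpl7a, Rpl12, Rpl27, Rpl31, Rpl35 and Rpl41, were represented by a probe set on another chromosome, and the family has many processed copies in the genome. Their values are therefore uncertain as to which copy was measured.

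Technically the lines differed. The difference between the medians of positive and negative control probe sets was at least 4.32 log2 units on 9 arrays. It was under 3 on the 3 others, all of the FAP line: control replicates 1 and 3 (2.97 and 2.99) and the second depleted tumour (2.69). Medians of the negative controls, in deposited log2 values, were 5.46 to 6.49 in the FAP line and 4.46 to 4.88 in the aSMA line. After quantile normalization, Fap was lower in all 3 FAP depleted tumours (5.52, 5.34 and 6.21) than in the 3 controls (6.56, 7.31 and 6.53), without passing the test (limma, adjusted p = 1.00). Acta2 was not lower in the group labelled aSMA depleted (10.13, 13.86 and 15.28) than in its controls (12.26, 10.85 and 11.12). Markers of ductal or tumour epithelium had array means of 13.44 to 15.32 and acinar markers 6.05 to 13.69, so acinar markers varied widely between samples. In bulk tissue, fewer cells of a type and less RNA per cell cannot be told apart.

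The first question was whether removing FAP-positive cells changed ribosomal protein mRNAs. No member passed the test. Of the 45 members 0 were called at an adjusted p under 0.05 (limma, Benjamini-Hochberg over all 30142 genes), as was 0% of all genes. At an unadjusted p under 0.05 the count of members was also 0, against 3.71% of all genes. In direction, 17 members were higher and 28 lower after depletion, with a median difference of -0.06 log2 units against 0.04 over all genes and a median standard error (SE) of 0.34. That balance rested on single tumours: the median was -0.41 without FAP-TK control replicate 1, 0.23 without control replicate 2 and 0.01 without depleted replicate 2. The values of the 3 depleted and 3 control tumours did not overlap for 2 members, Rps23rg1 (higher) and Rpl6l (lower), or 4.44% of members, and 8.10% of all genes had such a separation.

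In the large subunit 8 of 17 were higher (median -0.07), and in the small subunit 4 of 15 (median -0.06). The smallest p-values belonged to Rps24, a small-subunit protein, with a difference of -0.56 ± 0.34 (SE), and to Rpl39l, with 0.24 ± 0.11. Rps24 read 8.69, 10.24 and 9.79 in controls and 9.16, 9.26 and 8.64 in the depleted tumours, so the groups overlapped. Rps18, at the head of the small subunit, differed by -0.30 ± 0.18, Rpl10a by -0.41 ± 0.31 and Rpl7, a large-subunit protein, by 0.29 ± 0.27, all at adjusted p = 1.00 by limma. Rpl11, which binds Mdm2 when free, differed by -0.17 ± 0.19 and Rps7, another Mdm2 binder, by -0.23 ± 0.30. Rps19 and Rps26, genes mutated in Diamond-Blackfan anaemia, an inherited failure of red cell production, differed by 0.16 ± 0.23 and -0.39 ± 0.52.

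In the aSMA line depletion also left every member uncalled. Of 45 members 0 passed the adjusted test, as did 0% of all genes, and 0 reached an unadjusted p under 0.05, against 4.81% of all genes. Of the members 19 were higher and 26 lower in the group labelled aSMA depleted, with a median difference of -0.05 against 0.01 over all genes. This balance depended on scaling: the median was 0.02 with the values as deposited and 0.10 with median centring. Groups did not overlap for 4 members (8.89%), Rpl12, Rpl35 and Rps29 higher and Rps19bp1 lower, against 12.5% of all genes.

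Rps29, a small zinc-binding protein of the small subunit, was the tightest of these. It read 13.66, 13.55 and 13.62 in the aSMA-TK controls and 13.94, 13.96 and 13.95 in the depleted group. All 3 depleted values lay above all 3 controls, but the difference of 0.34 ± 0.38 did not pass (limma, adjusted p = 0.95), with an SE estimated over all 12 arrays. Rpl35, a large-subunit protein near the exit of the peptide tunnel, differed by 0.65 ± 0.54, Rpl7a by 0.29 ± 0.26 and Rps7 by 0.31 ± 0.30. On the low side, Rps19bp1, which encodes a protein that binds Rps19, differed by -0.45 ± 0.30 and Rpl37a, a zinc-binding large-subunit protein, by -0.47 ± 0.33. The Rpl35 and Rpl7a values come from probe sets on another chromosome; the Rpl7a probe set at its own gene gave -0.080.

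The FAP and aSMA effects were then compared with each other. The difference between them, aSMA effect minus FAP effect, was called for 0 members and 0% of all genes, and 26 members were above 0 and 19 below (median 0.03, all genes -0.03). Without FAP-TK control replicate 1 the median was 0.34, and without replicate 2 it was -0.22. Rps23rg1 alone had an unadjusted p under 0.05 (difference -1.16 ± 0.51, limma adjusted p = 0.83), where 5.96% of all genes did. In the FAP line it read 5.38, 5.44 and 5.37 in controls and 5.69, 6.28 and 5.81 after depletion. In the aSMA line it read 6.41, 7.58 and 6.37 in controls and 5.48, 6.47 and 6.52 after depletion. After depletion it lay above all controls of its line in the FAP line, and it did not exceed the 95th percentile of the negative controls on any array. Among positive differences, Rpl35 differed by 1.28 ± 0.77, Rps7 by 0.55 ± 0.43 and Rpl10a by 0.51 ± 0.44. On the negative side Rps19bp1 differed by -0.63 ± 0.43 and Rpl39l by -0.24 ± 0.15.

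**Figure D1:**
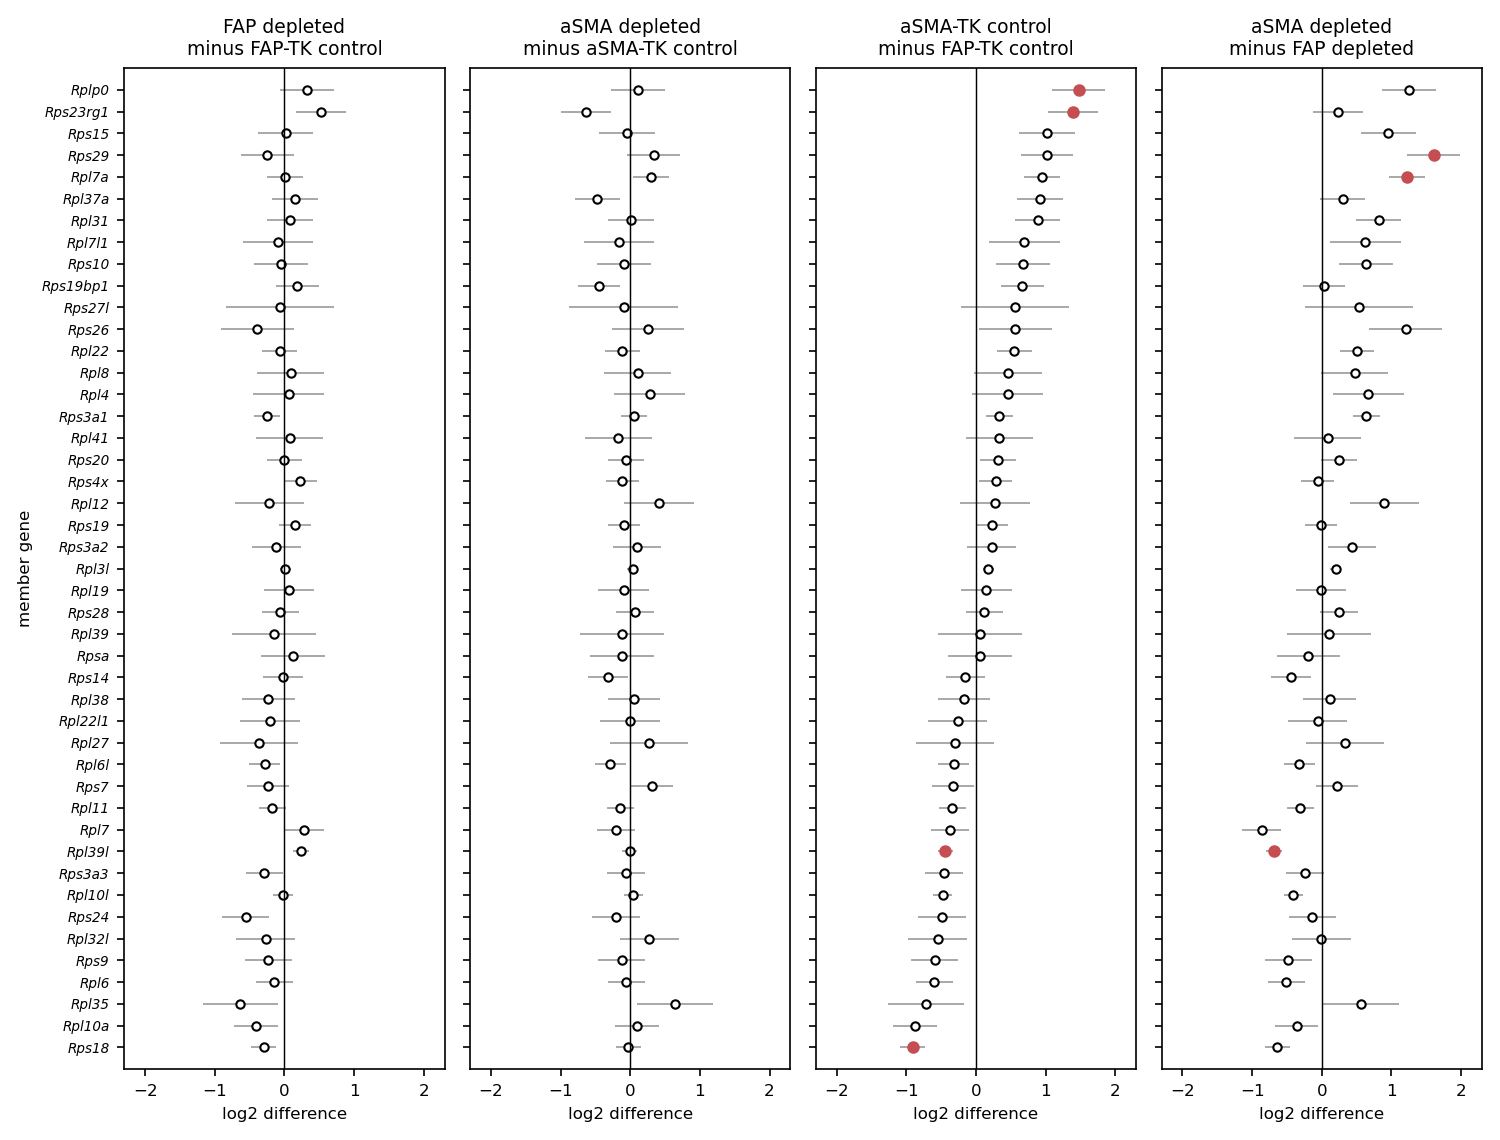
Log2 difference (points) and standard error (bars) of each of the 45 member genes, ordered by the difference between the control groups, in 4 comparisons with 3 arrays in each group; filled red points have a limma adjusted p under 0.05. No point is filled in the depletion comparisons, and 4 and 3 points are filled in the comparisons between lines.

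By the median over the 45 members, the widest spread lay inside 1 group. In the FAP-TK controls, by replicate number, this median was 9.13, 11.20 and 10.44, a standard deviation (SD) of 1.04. Members differ widely in level, and each such median is the reading of 1 gene. That gene was Rpl38 in replicate 1 and Rps27l in replicates 2 and 3. In the FAP depleted tumours the same median was 10.06, 10.14 and 9.98 (SD 0.08), in the aSMA-TK controls 10.14, 10.22 and 10.15 (SD 0.05), and in the group labelled aSMA depleted 9.97, 10.34 and 10.13 (SD 0.18). On this median the other 3 groups kept within 0.37 log2 units, and its lowest and highest arrays were both FAP-TK controls. Without the 6 paralogs and the 2 genes that are not ribosomal proteins, the median was 10.92, 11.94 and 11.63 in the FAP-TK controls. In the group labelled aSMA depleted it was 11.36, 12.41 and 12.17, a range about as wide. It was 11.36 to 11.66 in the FAP depleted tumours and 11.95 to 12.39 in the aSMA-TK controls. FAP-TK control replicate 1 stayed lowest, but the highest array was tumour 2 labelled aSMA depleted. The array order, and the gap between FAP-TK control replicates 1 and 2, were chosen for description after the values were seen, so no test is given.

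The gap within the FAP-TK controls ran through nearly all members. FAP-TK control replicate 2 was above replicate 1 for 44 of 45 members (97.8%), against 61.3% of all genes, with a median gap of 1.12 log2 units against 0.09. All 33 subunit and stalk genes were higher in replicate 2. The gap was over 1 for 29 members (64.4%) and 11.4% of all genes. The order replicate 1, then 3, then 2 was shared by 34 of 45 members (75.6%) and 28.5% of all genes. The exception with a gap below 0 was Rpl39l, at 4.29 and 4.04, which did not rise above the negative-control median on any array. With the values as deposited the median gap was 1.05 and with median centring 1.16, so scaling did not change it.

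Rps27l, a paralog of Rps27 that p53 induces, had the widest gap. It read 7.34, 11.20 and 10.44 in the FAP-TK controls, 10.06, 9.49 and 9.23 after FAP depletion, 10.14, 10.37 and 10.15 in the aSMA-TK controls and 9.95, 10.17 and 10.26 in the group labelled aSMA depleted. One control tumour was thus low and the other 11 arrays lay between 9.23 and 11.20. Rpl39, a very small protein of the peptide exit tunnel, read 9.68, 12.69 and 11.63 in the FAP-TK controls and 10.89 to 11.70 on the other 9 arrays. Rpl27, a large-subunit protein, read 11.58, 14.25 and 13.53 in the FAP-TK controls and 12.50 to 13.50 elsewhere. These had the largest SD within groups, and in each FAP-TK control replicate 1 was the lowest and replicate 2 the highest of all 12 arrays.

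**Figure D2:**
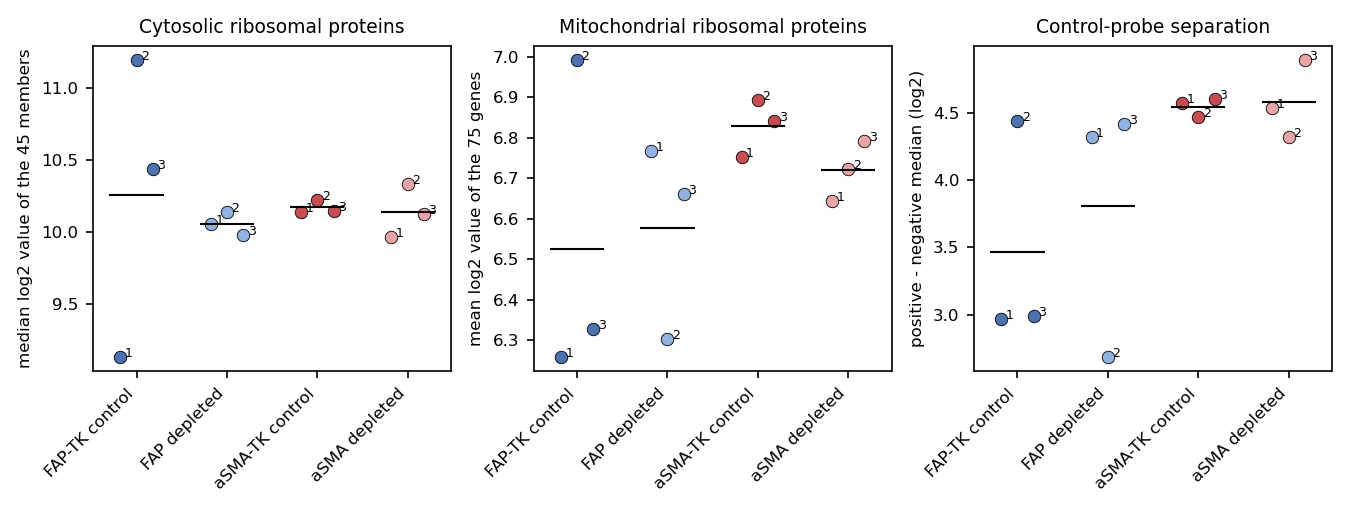
Each point is 1 tumour, numbered by replicate, and horizontal lines are group means; the panels give the median log2 value of the 45 members, the mean log2 value of 75 mitochondrial ribosomal protein genes and the separation of positive from negative control probe sets. FAP-TK control replicate 1 (9.13) and replicate 2 (11.20) enclose all other arrays in the first panel, and FAP depleted replicate 2, which has the lowest separation (2.69), lies at 10.14.

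Some other measures moved with this order. In the FAP-TK controls, by replicate number, 18 translation factors with TOP mRNAs had array means of 11.82, 12.88 and 11.97. Of these, 13 had the order replicate 1, then 3, then 2. Fau, a ribosome component outside the family's symbols, read 12.10, 14.69 and 13.38. Ribosome biogenesis factors had array means of 7.80, 8.24 and 7.78, with replicate 3 lowest. The 75 mitochondrial ribosomal proteins, which build the separate ribosome of the mitochondrion, were higher in replicate 2 than in replicate 1 for 66 genes with a median gap of 0.71. Their array means were 6.26 to 6.33 on the 3 arrays of low separation and 6.64 to 6.99 on the other 9. Control-probe separation in the 3 controls was 2.97, 4.44 and 2.99. Macrophage markers (7 genes) had array means of 7.86, 11.97 and 11.08, fibroblast markers (9 of 10 measured) 9.02, 10.41 and 10.28, and smooth muscle and pericyte markers (7 genes) 5.81, 8.38 and 7.02. Other lists had other orders: acinar markers 7.11, 7.30 and 9.13, ductal or tumour epithelium 13.74, 14.52 and 13.44, endothelial markers 6.37, 7.73 and 5.36 and islet markers 4.90, 6.35 and 4.66. The part of these measures in the result was not tested.

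The members co-varied once group means were removed. The median correlation between pairs of members was 0.62 over 12 arrays (990 pairs), 0.72 over the 6 arrays of the FAP line and 0.27 over the 6 of the aSMA line. These are descriptions over genes measured on the same arrays. Without FAP-TK control replicate 1 the median was 0.49, without replicate 2 it was 0.38, and without any other single array 0.63 to 0.67. Without all 3 FAP-TK controls it was 0.26, so the co-variation rested largely on those tumours. Mitochondrial ribosomal proteins gave 0.67 and 34 ribosome biogenesis factors 0.50 over the 12 arrays.

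Single members followed the family to very different degrees. The correlation of each member with the median of the other members, over 12 arrays after removal of group means, had a median of 0.84, and 36 of 45 members exceeded 0.5, against a median of 0.15 and 23.1% over all genes. Rps10 (0.98), Rpl6 (0.97), Rps19 (0.96) and Rpl19 (0.95) followed it most closely. Rpl39l (-0.57), Rps23rg1 (0.09), Rpl6l (0.15), Rpl4 (0.17), Rpl37a (0.20), Rpl3l (0.22) and Rps18 (0.40) followed it least. Members with the pyrimidine run at the start had a median of 0.82 (16 genes) and those without it 0.84 (21 genes).

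**Figure D3:**
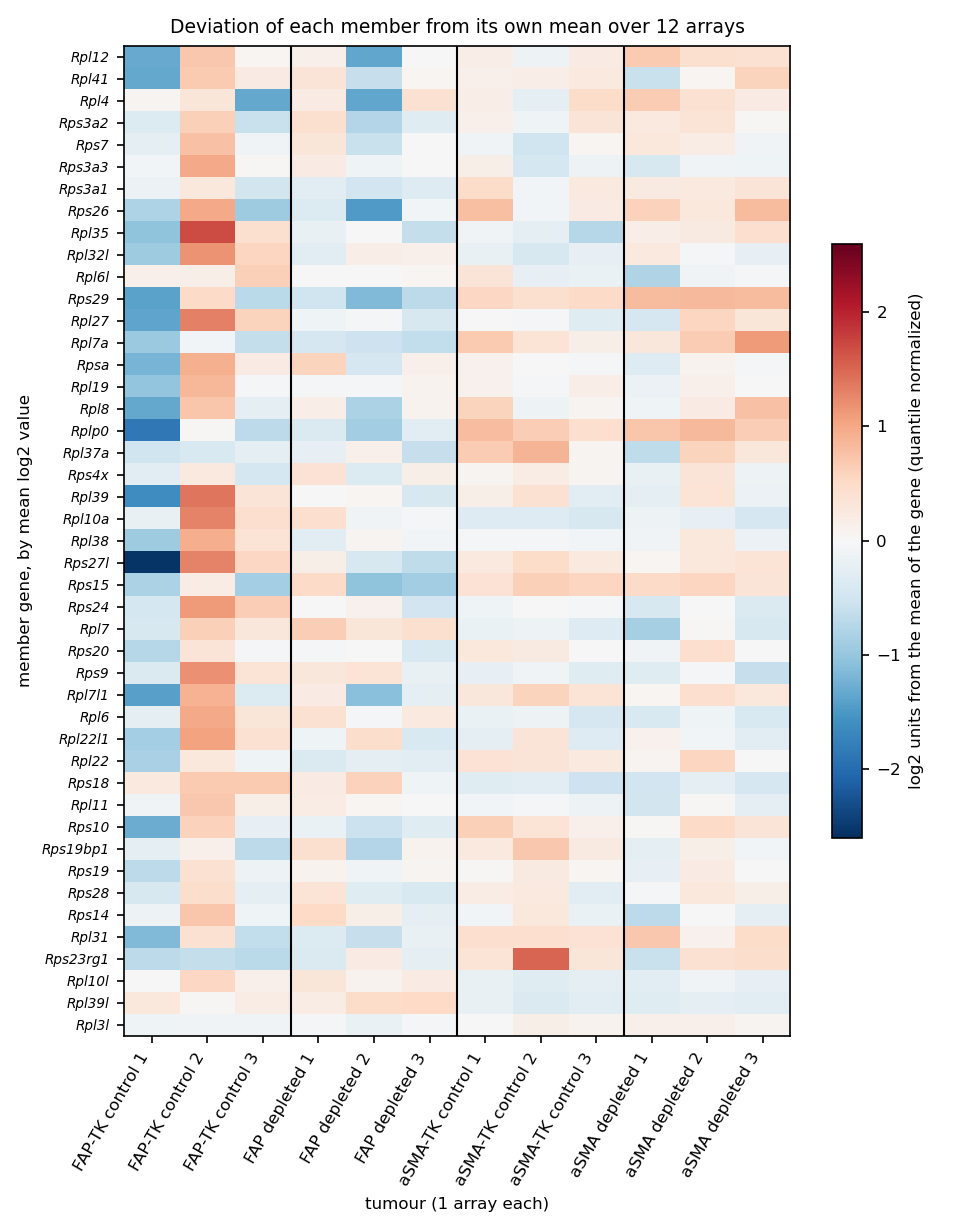
Each row is a member gene, ordered by its mean log2 value, and each column a tumour; the colour gives the log2 distance from the mean of that gene over 12 arrays. FAP-TK control 1 is mostly blue and FAP-TK control 2 mostly red, the widest deviation being Rps27l in control 1, at 7.34, and the rows of Rpl39l and Rpl3l are pale throughout.

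The lines were compared next, first as controls. In the aSMA-TK controls 2 members were called higher and 2 lower than in the FAP-TK controls, or 8.89% of members against 7.80% of all genes (4.78% higher and 3.02% lower). At an unadjusted p under 0.05 there were 12 members (26.7%) against 28.2% of all genes. Groups did not overlap for 7 members that were higher and 4 that were lower, 24.4% in all, against 35.0% of all genes. The members' counts were thus near or below the background in this model. Without the 3 arrays of low separation the members' median difference was -0.54. The 1 FAP-TK control left in that fit is replicate 2, which was above replicate 1 for 44 of 45 members. Over all 12 arrays 27 members were higher and 18 lower with a median difference of 0.17 (all genes 0.07). With the values as deposited it was -0.36, where the median of all genes was -0.39. Without FAP-TK control replicate 1 the members' median was -0.29, and without replicate 2 it was 0.53. Calls over all genes were 61.3% higher after quantile normalization, 57.9% with median centring and 3.41% as deposited. Line and array quality cannot be told apart here, because the arrays with low separation and higher background all belong to the FAP line.

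The stalk protein Rplp0, which with Rplp1 and Rplp2 recruits elongation factors to the ribosome, was the highest of the 4. It read 10.05, 11.94 and 11.23 in the FAP-TK controls and 12.72, 12.56 and 12.36 in the aSMA-TK controls, and all 3 of the latter lay above the former. The difference was 1.47 ± 0.39 (limma, adjusted p = 0.0481). In the depleted groups it was 11.55, 11.02 and 11.62 against 12.65, 12.76 and 12.56, a difference of 1.26 ± 0.39 that did not pass (limma, adjusted p = 0.089). The call between controls held in 2 of 12 fits that left out 1 array, those without FAP-TK control replicate 2 or FAP depleted replicate 2. It was lost in 6 of 11 other settings, with limma adjusted p from 0.00899 to 0.187 and a difference of 0.61 to 1.91 over all of these fits.

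Rps18 was the clearest member on the low side. This protein sits in the head of the small subunit, and the gene lies at chr17:33951998-33955665 with the pyrimidine run shown above. It read 7.91, 8.33 and 8.33 in the FAP-TK controls and 7.34, 7.38 and 7.11 in the aSMA-TK controls, without overlap, a difference of -0.91 ± 0.18 (limma, adjusted p = 0.0237). The depleted groups gave 7.86, 8.26 and 7.55 against 7.15, 7.39 and 7.22, a difference of -0.64 ± 0.18 (limma, adjusted p = 0.077). The call held in 8 of 12 fits without 1 array, and was lost without FAP-TK control replicate 3 or any of the aSMA-TK controls. It held in 7 of 10 other settings. The losses were with only the groups compared, without the 3 arrays of low separation and with the control-probe separation as a covariate. The difference was negative in all of these fits, from -1.83 to -0.76. Medians of the negative controls were also higher in the FAP line, and their part in this difference was not tested. Rps18 stayed below the 95th percentile of the negative controls on all 12 arrays.

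Rps23rg1 was also called higher (1.39 ± 0.36, limma adjusted p = 0.0462), with the aSMA-TK controls at 6.37 to 7.58 and the FAP-TK controls at 5.37 to 5.44, but not in 6 of 9 other settings. The average with a second probe set of this gene was among those that lost the call. Of 12 fits without 1 array Rps23rg1 kept the call in 2, without FAP depleted replicate 2 or without tumour 1 labelled aSMA depleted. Rpl39l was called lower, at 3.65 to 3.83 against 4.04 to 4.29, a difference of -0.44 ± 0.11 (limma, adjusted p = 0.0420). It was below the median of the negative controls on all arrays, and that median itself was lower in the aSMA line, so only a bound on its level is known. The call held in 4 of 12 fits without 1 array, with limma adjusted p up to 0.128, and was lost without FAP-TK control replicate 1 or 3, FAP depleted replicate 3, any aSMA-TK control or tumours 2 and 3 labelled aSMA depleted. Rpl10l, which replaces X-linked Rpl10 in the testis, was equally dim and differed by -0.47 ± 0.14 (limma, adjusted p = 0.063). Close to the threshold on the high side was Rpl7a at 0.94 ± 0.26 (limma, adjusted p = 0.055).

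Between the depleted groups 2 members were called higher in the group labelled aSMA depleted and 1 lower, or 6.67% of members against 5.18% of all genes (2.74% higher and 2.44% lower). At an unadjusted p under 0.05 there were 12 members (26.7%), against 24.6% of all genes. Groups did not overlap for 11 members that were higher and 7 that were lower, 40.0% in all, against 32.9% of all genes. Again 27 members were higher and 18 lower, with a median of 0.20 (all genes 0.04), but -0.37 with the values as deposited, where all genes had a median of -0.45. Calls over all genes were 52.9% higher, against 64.9% with median centring and 2.32% as deposited. The members' median was 0.07 to 0.28 over the fits without 1 array, lowest without tumour 2 labelled aSMA depleted, and -0.13 with control-probe separation as a covariate. The comparison shares no tumour with that of the controls, but both take their SE from 1 fit over all 12 arrays. The difference of effects given above is the test of whether the gaps between lines differed.

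Rps29 was called higher. Its FAP depleted values were 12.61, 11.97 and 12.45 and its values in the group labelled aSMA depleted 13.94, 13.96 and 13.95, a difference of 1.61 ± 0.38 (limma, adjusted p = 0.0430). Among the controls, at 11.73, 13.61 and 12.43 against 13.66, 13.55 and 13.62, the groups overlapped and the difference was 1.02 ± 0.38 (limma, adjusted p = 0.12). The call held without FAP-TK control replicate 1 or 2 and was lost without each of the other 10 arrays, with limma adjusted p up to 0.126. It held in 8 of 11 other settings. The losses were with the filter on dim genes, with only the groups compared and with the control-probe separation as a covariate.

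Rpl7a, a large-subunit protein that contacts the ribosomal RNA, was called higher as well. It read 12.29, 12.18 and 12.07 in the FAP depleted tumours and 13.00, 13.38 and 13.83 in the group labelled aSMA depleted, a difference of 1.23 ± 0.26 (limma, adjusted p = 0.0313). That probe set lies on chromosome 9, whereas the gene is at chr2:26910685-26913312. The probe set on chromosome 2 gave 0.79 ± 0.22 (limma, adjusted p = 0.067) between the depleted groups and 0.90 ± 0.22 (limma, adjusted p = 0.039) between the controls, so the direction was the same and the call moved from 1 comparison to the other. The call of the chosen probe set was lost without any of the FAP depleted tumours or tumours 2 and 3 labelled aSMA depleted (limma, adjusted p up to 0.090), and in 7 of 11 other settings (limma, adjusted p up to 0.119). Rpl39l was lower again (-0.68 ± 0.11, limma adjusted p = 0.0133) at values below the negative-control median. That call held in each of 12 fits without 1 array and in 7 of 9 other settings, and was lost with only the groups compared and without the 3 arrays of low separation (limma, adjusted p up to 0.074). Rps3a1, a small-subunit protein, and Rpl7 differed by 0.64 ± 0.19 and -0.86 ± 0.27 without passing (limma, adjusted p = 0.082 and 0.096).

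**Figure D4:**
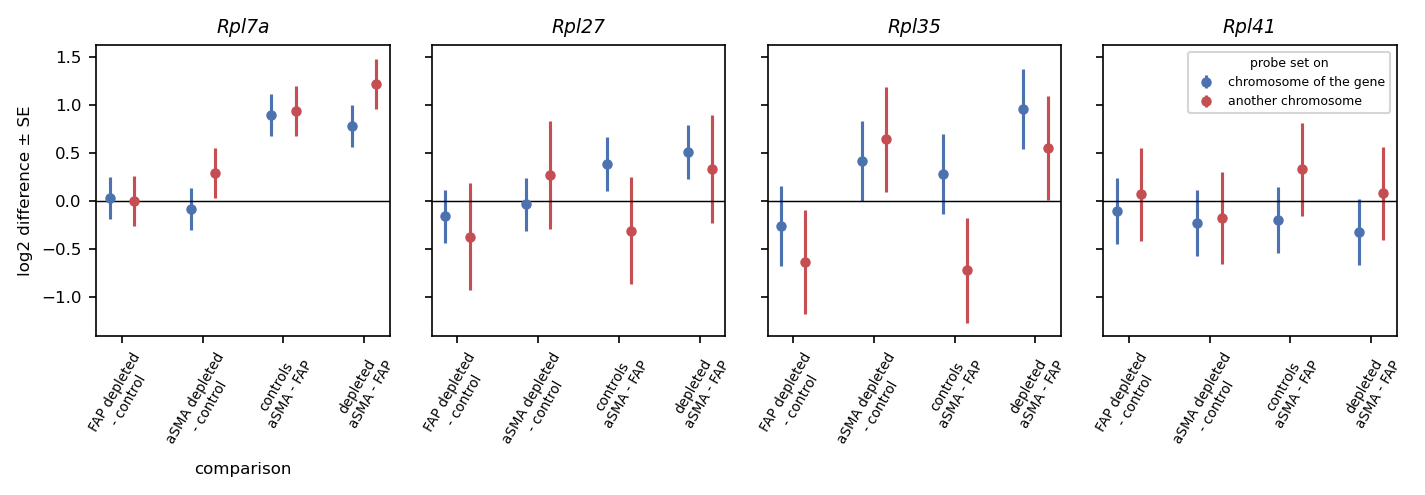
For 4 members with a probe set on the chromosome of the gene (blue) and one on another chromosome (red, the one of higher mean), points give the log2 difference and bars the standard error in 4 comparisons. Rpl7a is above 0 between lines in both, whereas Rpl35 between the controls is 0.28 in blue and -0.72 in red.

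Probe sets that stand for the same gene mostly moved together across arrays, and their line differences were alike for some genes and not for others. The correlation of the chosen probe set with the one at the gene itself, over 12 arrays after removal of group means, was 0.95 for Rpl27, 0.94 for Rpl35, 0.82 for Rpl41 and 0.73 for Rpl7a. Yet between the controls Rpl35 differed by 0.28 ± 0.42 at its own gene and -0.72 ± 0.54 on the other chromosome, and Rpl27 by 0.39 ± 0.28 and -0.30 ± 0.56. Rpl41 differed by -0.19 ± 0.34 and 0.33 ± 0.48. None of these 6 values passed the test, and whether the probe sets differed was not tested. For Rpl7a the values at the gene and elsewhere lay close together (0.90 and 0.94), and between the depleted groups Rpl35 (0.96 and 0.56) and Rpl27 (0.51 and 0.34) were above 0 in both. Rps26 had 3 probe sets, and its chosen one correlated at 0.97 with the second and at -0.06 with the third, which was dim.

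Paralogs and their parent genes were measured as pairs for Rpl7 and Rpl7l1, Rpl22 and Rpl22l1, and Rpl39 and Rpl39l. Rpl22l1, which can take the place of Rpl22 in the ribosome, read 7.18, 9.09 and 8.44 in the FAP-TK controls and 7.66 to 8.50 on the other arrays, and Rpl22 read 7.17, 8.29 and 7.90 and 7.63 to 8.58. Both had replicate 1 lowest and replicate 2 highest within the FAP-TK controls. Between the controls Rpl22 differed by 0.55 ± 0.25 and Rpl22l1 by -0.26 ± 0.43, and neither passed (limma, adjusted p = 0.18 and 0.72). Rpl7l1, a factor of large-subunit assembly, differed by 0.70 ± 0.51 where Rpl7 differed by -0.38 ± 0.27. Rpl3l, a paralog of striated muscle, Rpl10l and Rpl39l, which are testis paralogs, stayed below the negative-control median on all 12 arrays and had the smallest SD of all members.

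Whether signal limited the brightest members too was not tested. The 3 members of highest mean were Rpl12 (17.36 to 19.40), Rpl41 (17.20 to 19.20) and Rpl4 (17.07 to 19.07), and the highest deposited value of any probe set was 19.93. Of the 45 members 38 lay above the negative-control median on all arrays and 18 above its 95th percentile. None of these 3 was called in any comparison after quantile normalization, with a smallest limma adjusted p of 0.296. With the values as deposited Rpl4 was called higher in both line comparisons (1.13 and 1.15) and Rpl12 between the depleted groups (1.39), and with median centring both genes were called in both.

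No gene of the wider machinery passed the test in a depletion comparison. Among 34 measured ribosome biogenesis factors, 10 genes of RNA polymerase I, 18 translation factors with TOP mRNAs, 15 regulators around mTORC1 and Myc and 75 mitochondrial ribosomal proteins, 0 genes were called in either depletion comparison, as was 0% of all genes. Between the controls 2 biogenesis factors were called higher (5.88% of the list, against 4.78% of all genes) and 1 lower (2.94%, against 3.02%): Tcof1 (0.91 ± 0.18) and Rrp12 (0.74 ± 0.20), which act in ribosomal DNA transcription and in export of subunits, and Nmd3 (-0.70 ± 0.13), the export adaptor of the large subunit. Between the depleted groups Tcof1 was higher (0.74 ± 0.18) and Nmd3 (-0.66 ± 0.13) and Emg1 (-0.83 ± 0.19) lower, or 2.94% and 5.88% of the list against 2.74% and 2.44% of all genes. Among the TOP factors Tpt1, a growth-related protein, was lower in both line comparisons (-0.62 ± 0.13 and -0.91 ± 0.13), and Btf3 was higher between the depleted groups (1.04 ± 0.21); each is 5.56% of its list.

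Mitochondrial ribosomal proteins stood mostly on 1 side between the controls. Of 75, 64 were higher in the aSMA-TK controls (median 0.33), as were 58.2% of all genes (median 0.07). Array means were 6.26, 6.99 and 6.33 in the FAP-TK controls and 6.75, 6.89 and 6.84 in the aSMA-TK controls, so the groups overlapped and replicate 2 of the former was the highest. Mrps27, Mrps24 and Mrps12 were called higher, 4.00% of the list against 4.78% of all genes called higher. Between the depleted groups 52 of 75 were higher (median 0.15), as were 55.2% of all genes (median 0.04). Mrps17 was called higher, 1.33% of the list against 2.74% of all genes called higher. Of RNA polymerase I 0 genes were called in either line comparison, and of the mTORC1 and Myc regulators 0. Myc itself differed by 1.46 between the controls (limma, adjusted p = 0.12). Of the 3 ribosome components whose names fall outside the family's symbols, only Fau had a value, and it differed by 0.28 ± 0.51 between the controls.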

How the data were processed

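The authors deposited 1 table of processed values, which from their range (1.64 to 19.93) were read as log2 intensities; how background was corrected or arrays were normalized is, like a version for the limma named in the submitters' processing notes, not given in the sources used here. Probe set identifiers are those of Affymetrix transcript clusters, while the labels' protocols name a kit for Illumina arrays. Depth does not apply, and the number of arrays limits the precision. From 72688 probe sets 6732 controls were removed and the other 65956 quantile normalized. Of the 32750 listed, 30604 had 1 symbol; 827 symbols were updated through RefSeq. One mean per group was fitted over 12 arrays with limma 3.58.1 (R 4.3.3), two-sided, adjusted by Benjamini-Hochberg over 30142 genes and called under 0.05. The fit was run on simulated data in which genes varied independently and with equal spread in all groups. The members here co-varied and their spread differed between groups, so that run does not measure error rates in these data.

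The members, lists and tests were chosen with earlier results of these data known. Named with values were, per comparison, the 3 members of smallest p in each direction, the 3 of highest and lowest mean, the 3 of largest and smallest spread, and fixed groups (stalk, paralog pairs, Mdm2 binders, Diamond-Blackfan genes); in other lists up to 3 genes of smallest p. Marker lists served as measures beside a result. Genes shown for the FAP-TK controls' spread, locus and profile were chosen after their values were seen. P-values measure the spread between 3 mice a group. Alternatives were the values as deposited, median centring, a filter on dim genes, averaged probe sets, array weights, trended and robust variances, only the groups compared, a narrower member list, and leaving out arrays; the control-probe separation as a covariate and the probe set on the gene's chromosome were added after seeing the data. No replicate block was fitted, since numbers were given in accession order.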

Additional observations from a re-analysis of the deposited data

How the results depend on the processing

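No member was called in a depletion comparison, or in the difference between the depletion effects, under any setting run. The calls between lines depended on the setting, and so did the members' share against that of all genes. Counts are out of 30142 genes and 45 members, except with the filter on dim genes and for the narrower list. In both line comparisons, members were called at a higher rate than all genes with median centring and with array weights. With the values as deposited they were called at a lower rate. Between the controls, 2350 genes and 4 members were called in the model as reported. The counts were 12443 genes and 15 members with the values as deposited, 5769 and 11 with median centring, 6658 and 11 with array weights, 0 and 0 with the filter on dim genes (4518 genes, 29 members), 212 and 0 with only the groups compared, 357 and 5 without the 3 arrays of low control-probe separation, and 1012 and 1 with that separation as a covariate (chosen after seeing the data). The narrower member list had 2 calls. Similar counts did not mean the same members. Rpl39l, Rplp0, Rps18 and Rps23rg1, called in the model as reported, were not called without the 3 arrays or with the covariate. With the covariate the call was Rpl10l. Without the 3 arrays the calls were Rpl10a, Rpl10l, Rpl32l, Rpl35 and Rpl6, all lower, with differences from -2.07 (Rpl35) to -0.79 (Rpl10l). Between the depleted groups, 1562 genes and 3 members became 14287 and 15 as deposited, 3391 and 10 with median centring, 4502 and 9 with array weights, 18 and 0 with the dim filter, 1 and 0 with only the groups compared, and 634 and 2 without the 3 arrays. Leaving out 1 array gave 508 to 3130 genes and 0 to 7 members between the controls, 374 to 1874 and 1 to 7 between the depleted groups, 0 to 4 genes for FAP depletion, 0 to 16 for aSMA depletion and 0 to 1 for the difference between the effects. The members' median difference was -0.36 (controls) and -0.37 (depleted groups) as deposited, and -0.36 (controls) and -0.13 (depleted groups) with the covariate. Without the 3 arrays it was -0.54 between the controls, -0.61 for FAP depletion, where 13 genes and no member were called, and 0.63 for the difference between the effects; 1 FAP-TK control remains in that fit and is assumed to vary like the other groups. Among the genes followed through the settings, 2 reversed: Rpl7a after aSMA depletion, at -0.080 with the probe set on its own chromosome, and Rpl7 after FAP depletion, at -0.10 without the 3 arrays and -0.0033 to 0.52 over the fits without 1 array. Between the controls the probe set on its own chromosome also turned the sign of Rpl35 (0.28), Rpl27 (0.39) and Rpl41 (-0.19), none called. The cause was not tested. Signal limits the dim members, since 3 lie below the negative-control median on every array.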

Other observations

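Probe sets outside the members that carry ribosomal protein names varied across arrays much as the members did. Which transcripts they detect was not tested. The 53 probe sets of several symbols that include a ribosomal protein symbol had medians of 9.65, 11.60 and 11.12 in the FAP-TK controls by replicate number, and the 201 named as single ribosomal protein pseudogenes 11.14, 12.88 and 12.41, both in the order of the members. Their median correlation with the members' median, after removal of group means over 12 arrays, was 0.84 and 0.81. Neither set had a call in a depletion comparison. Between the controls 4 (7.55%) and 10 (4.98%) were called higher, against 4.78% of all genes, and 1 (1.89%) and 2 (0.995%) lower, against 3.02%. Between the depleted groups 3 (5.66%) and 9 (4.48%) were called higher, against 2.74% of all genes, and 1 and 2 lower, against 2.44%.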
